A study of Homo sapiens with 36 samples.

Results

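The transcripts described here are 10 messenger RNAs copied from the mitochondrial genome: ND1, ND2, ND4, ND5 and ND6 of complex I, CYTB of complex III, COX1, COX2 and COX3 of complex IV, and ATP6 of complex V. They were taken by their symbols from the 54583 genes of each of 3 count tables, and are 10 of the 13 protein-coding genes of the human mitochondrial genome. All 10 passed the filter on low counts in every table. The lowest count of any of them in any library was 5081, for ND6.

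Human mitochondrial DNA is transcribed by its own single-subunit RNA polymerase, POLRMT, as long transcripts that cover nearly a whole strand. Transfer RNAs punctuate these transcripts, and their excision releases the messenger and ribosomal RNAs. The messengers then receive short A tails and are kept stable mainly by the LRPPRC and SLIRP proteins, so that mature levels depend on transcription, cutting, tailing and decay together. Their products form the membrane core of complexes I, III, IV and V, to which many subunits encoded in the nucleus are added.

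The cells were MDA-MB-231, a human triple-negative breast cancer line, and 1 cell line only was used. Each table held 12 polyA RNA-seq libraries in 4 groups of 3: DMSO, SHP1705, a proteasome inhibitor, and both drugs together, called the combination below. SHP1705, a compound that stabilizes cryptochrome clock proteins, was labelled 10 µM throughout. The first table covered 100 nM MG132 for 8 h. The other 2 covered 10 nM carfilzomib, abbreviated CFZ, for 8 h and for 24 h. The labels do not say whether the 3 libraries of a group came from separate cultures, so a p-value here sets a difference against library-to-library spread, part of which may be technical.

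Total counts per library were 34200000 to 39300000 in the MG132 set, 17800000 to 27700000 in the 8 h carfilzomib set and 18900000 to 34000000 at 24 h, each rounded to 3 digits. The 5 high markers of this line (VIM, CD44, AXL, MSN and CAV1) summed to 3673 to 5490 CPM per library. The 5 low ones (ESR1, PGR, ERBB2, CDH1 and EPCAM) summed to 49.2 to 111 CPM. All 5 high markers reached over 1 CPM in every table. Of the low ones ERBB2 and EPCAM did so too, and CDH1 did in the MG132 and 24 h tables. In the MG132 table, POSTN, a fibroblast gene, had over 100 counts in SHP1705 replicates 2 and 3, MG132 replicates 1 and 3 and all 3 combination libraries, and at most 11 counts in the other 5. The summed level of 9 fibroblast and mesenchymal markers there was 17.7 to 19.4 CPM in those 5 libraries and 49.0 to 282 CPM in the other 7. POSTN is itself 1 of the 9, so sorting by POSTN fixed part of this separation. It made up 28.2 of 49.0 CPM in SHP1705 replicate 2 and 173 of 205 CPM in MG132 replicate 3. In the 8 h carfilzomib table the labels go against the data: HSPA1A, a heat shock gene, was at 14559 to 23605 CPM in all 3 libraries labelled DMSO and at 726 to 896 CPM in the 3 labelled carfilzomib. PER3, a clock gene that falls with SHP1705 in the other tables, also varied within each label of that table. Results from it are therefore given for the libraries as labelled, and a correlation that includes it is given with and without it.

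How each coding sequence ends is shown first, because the members as annotated split evenly by it. Some messages, such as that of COX1, may run past the printed bases. The last 30 bases of each coding gene are printed 5′ to 3′ as written in the GENCODE release 29 transcripts on GRCh38, with the encoded part of the stop codon in capitals. For 5 members the gene holds only the first base or bases of the stop codon, and the A tail added after cutting completes it.
ND1: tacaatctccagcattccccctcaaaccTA
ND2: ctatctccccttttatactaataatcttaT
COX3: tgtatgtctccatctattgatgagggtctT
ND4: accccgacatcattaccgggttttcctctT
CYTB: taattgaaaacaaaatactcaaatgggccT
For the other 5 the annotated gene holds the whole stop codon, as AGA in COX1 and AGG in ND6. The last base of the ATP6 stop codon, position 9207, is also the first base of COX3. Which message keeps that base after cutting was not tested, so ATP6 may belong with the first 5.
COX1: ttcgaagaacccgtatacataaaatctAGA
COX2: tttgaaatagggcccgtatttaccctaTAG
ATP6: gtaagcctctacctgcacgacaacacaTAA
ND5: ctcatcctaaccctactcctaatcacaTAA
ND6: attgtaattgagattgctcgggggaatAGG

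On the mitochondrial chromosome of GRCh38, ND1 spans positions 3307 to 4262, ND2 4470 to 5511, COX1 5904 to 7445, COX2 7586 to 8269 and ATP6 8527 to 9207. Further along lie COX3 at 9207 to 9990, ND4 at 10760 to 12137, ND5 at 12337 to 14148, ND6 at 14149 to 14673 and CYTB at 14747 to 15887. Each is a single uninterrupted exon. ND6 alone among the members reads from the other strand. Its first 60 bases and those of CYTB are given with G in capitals to show the difference in base content between the strands.
ND6: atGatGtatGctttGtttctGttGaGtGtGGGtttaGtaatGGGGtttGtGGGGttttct
CYTB: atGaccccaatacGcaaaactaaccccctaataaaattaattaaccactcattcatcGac
G makes up 35.6% of the whole ND6 gene and C 7.05%, whereas C makes up 34.3% of CYTB. Among the 9 members of that strand, G content is at most 16.2%.

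Reads of some members cannot be placed with certainty. ATP6 shares 46 bases with ATP8 and 1 base with COX3, and ND4 shares 7 bases with ND4L. No strand setting for the counting was found in the labels, so ND6 reads cannot be told apart from transcripts of the opposite strand over the same positions. Nuclear copies of 8 members held counts of their own. Those of ND1, ND2, COX1, COX2, ATP6 and COX3 lie on chromosome 1 and those of ND4 and ND5 on chromosome 5. MTND2P28, the copy of ND2, had 18.4% to 27.7% as many counts as ND2 over the 36 libraries. MTATP6P1 had 4.68% to 17.9% as many as ATP6, and MTCO1P12 3.23% to 8.26% as many as COX1. The copies of ND1, COX2, COX3, ND4 and ND5 were at most 0.168% of their parents. How reads were divided between each near-identical pair was not tested, so the levels of ND2, ATP6 and COX1 are the least certain.

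Levels below are CPM, the usual depth-scaled count unit, after TMM scaling within a table, and levels are compared between genes only after division by gene length in kilobases. In the DMSO libraries of the MG132 table COX1, the catalytic core of complex IV, was the most abundant, at 5407 ± 131 CPM per kilobase (SD, n = 3). COX2 followed at 4787 ± 175 CPM per kilobase, then COX3 at 4153 ± 51.6 and ATP6 at 4131 ± 132, whose ranges overlapped. ND4 (2644 ± 102 CPM per kilobase) and ND2 (2612 ± 49.4) also overlapped, and were followed by ND1 at 1759 ± 24.0. The lowest were CYTB at 1126 ± 33.4, ND6 at 667 ± 12.8 and ND5 at 615 ± 13.1 CPM per kilobase. Genes that sit side by side, such as ATP6 and COX3, were alike in level here, while ND5 and ND4, also neighbours, were far apart.

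At 24 h in the carfilzomib table COX1 again stood first among the DMSO libraries, at 3871 ± 118 CPM per kilobase (SD, n = 3), and ND5 last, at 580 ± 29.8. Between them the order differed from that of the MG132 table. ND2, at 2267 ± 84.3 CPM per kilobase, stood above COX3, at 1743 ± 73.1, and ND4, ATP6 and COX3 overlapped as neighbours. ND6, at 903 ± 41.4 CPM per kilobase, stood with CYTB, at 872 ± 23.3. Counts of ND6 were 1.17% to 1.30% of the summed counts of the other 9 members in the 12 MG132 libraries and 1.99% to 2.69% in the 12 libraries at 24 h. Over the 12 libraries of the 8 h carfilzomib set, whatever their label, they were 1.19% to 1.55%. The tables are separate sets and only 1 covers 24 h, so time, set and processing cannot be told apart in these differences.

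**Figure D1:**
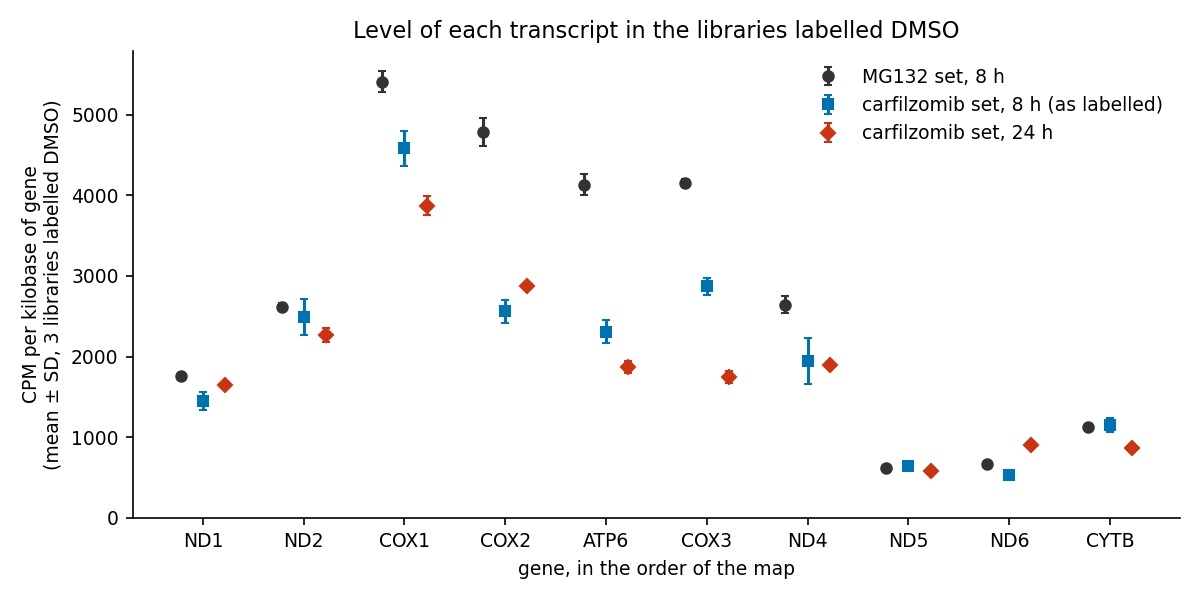
Level of each member in the libraries labelled DMSO, in CPM per kilobase of gene (mean ± SD, 3 libraries), by table and in map order. COX1 is highest in all 3 tables; COX3 and ATP6 lie at 4153 and 4131 in the MG132 table and at 1743 and 1871 at 24 h.

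The clearest changes were in the combination of SHP1705 and carfilzomib at 24 h, where 3 complex I messages and CYTB rose and COX1 fell. ND1 encodes a membrane subunit of complex I at the site where ubiquinone enters. Its level was 1589.7, 1585 and 1555 CPM in the DMSO libraries and 1913, 2059 and 1853 CPM in the combination. The groups did not overlap, and the log2 fold change was 0.30 ± 0.05 (SE; 95% interval 0.20 to 0.41; edgeR quasi-likelihood, Benjamini-Hochberg adjusted p = 9.17e-05), a rise of 23.2%. ND2, another membrane subunit of complex I, was at 2457, 2345 and 2284 CPM in DMSO and at 2884, 2946 and 2675 CPM in the combination. All 3 combination libraries were above all 3 DMSO libraries, with a log2 fold change of 0.26 ± 0.05 (edgeR adjusted p = 0.000175).

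ND4 belongs to the distal, proton-pumping part of the complex I membrane arm. It was at 2588, 2664 and 2597 CPM in DMSO and at 2938, 2975 and 2915 CPM in the combination, groups that did not overlap (log2 fold change 0.17 ± 0.05, edgeR adjusted p = 0.0108). CYTB, the only mitochondrially encoded subunit of complex III, was at 1019, 999 and 967 CPM in DMSO and 1170.5, 1149.7 and 1066 CPM in the combination. These groups were also separate (0.18 ± 0.05, edgeR adjusted p = 0.0129). The other complex I members, ND5 and ND6, had log2 fold changes of 0.14 ± 0.06 and 0.14 ± 0.07, and neither passed the threshold (edgeR adjusted p = 0.0987 and 0.16).

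COX1 was at 5955, 6158 and 5796 CPM in DMSO and at 5507, 5541 and 5269.7 CPM in the combination, so that every combination library was below every DMSO library. Its log2 fold change of −0.13 ± 0.05 (edgeR adjusted p = 0.0377) did not pass the threshold without DMSO replicate 1 or 2, without any single combination replicate, or with library totals as the scale, and over its 19 alternatives the estimate lay between −0.16 and −0.11. COX2, which holds the copper site that receives electrons from cytochrome c, had a log2 fold change of 0.04 ± 0.04, and COX3 had 0.00 ± 0.07. ATP6, the membrane subunit of the ATP synthase proton channel, had 0.05 ± 0.05. None of these 3 passed the test.

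In all, 4 of 10 members rose and 1 fell in this comparison, where 13% of the 16183 genes tested rose and 14.3% fell, 27.3% in all. The 4 that rose and COX1 were also the members without overlap, where 22% of all genes were higher and 22.4% lower in that way. The members' median log2 fold change was 0.14 and that of all genes 0.00. By complex, 3 of 5 complex I members, the 1 complex III member and none of the 4 members of complexes IV and V rose. By the annotated end of the coding sequence, the 4 that rose were among the 5 whose stop codon is completed by the tail, the exception being COX3. None of the 5 with a whole annotated stop rose, among them ATP6, whose place is uncertain as said above. ND3, not a member, has a stop completed by the tail and did not pass here (0.11, edgeR adjusted p = 0.0862). The grouping did not hold in the MG132 table, where ATP6 rose with SHP1705 and ND5 in the combination on the TMM scale. Grouping by stop codon was looked at after the values were seen and carries no test. ND1, ND2 and ND4 passed the threshold in all 19 alternatives of this comparison. CYTB did not pass without DMSO replicate 3 or combination replicate 1 or 2 (highest adjusted p = 0.0726).

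A ratio of 2 members within a library does not depend on scaling. ND1 counts were 25.7% to 26.8% of COX1 counts in the 3 DMSO libraries at 24 h and 34.7% to 37.2% in the combination. They were at least 29.4% with SHP1705 and 27.5% to 29.2% with carfilzomib, and each drug alone lay between the other groups without overlapping DMSO or the combination. In the MG132 table the same ratio was 19.8% to 20.7% in DMSO and 20.1% to 20.8% in the combination, which overlapped, while MG132 alone, at 19.1% to 19.7%, was below every DMSO library. This pair was chosen after its values were seen, and the ratio is given as a description.

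**Figure D2:**
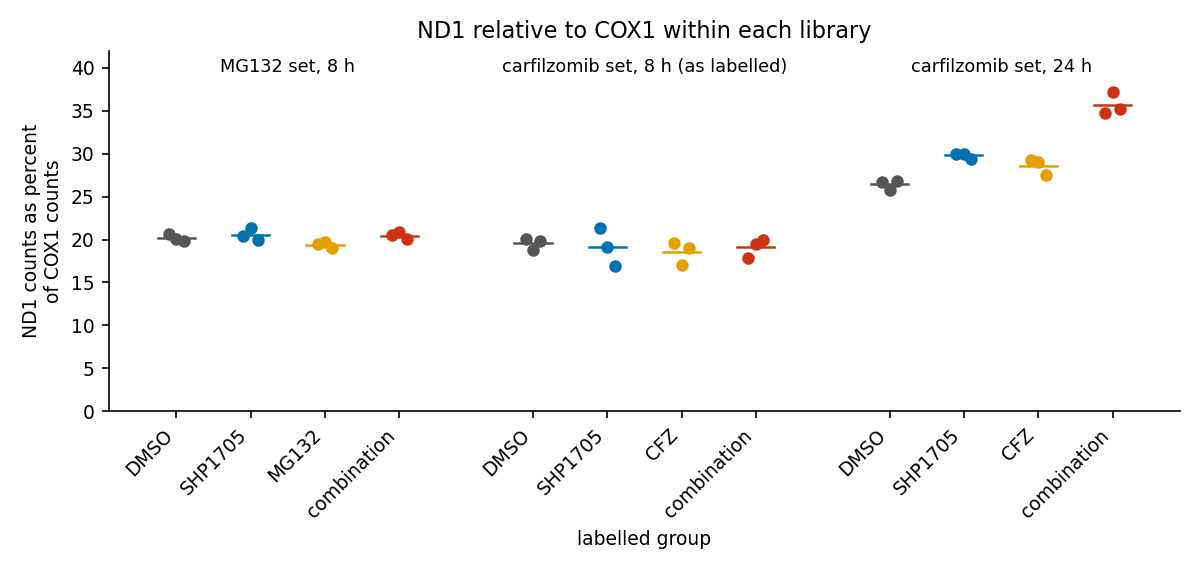
ND1 counts as a percent of COX1 counts in each library (points) with the mean of each labelled group (line), by table. At 24 h the DMSO libraries lie at 25.7 to 26.8 and the combination at 34.7 to 37.2; in the MG132 table all 12 libraries lie between 19.1 and 21.3.

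With SHP1705 alone at 24 h, ND1, ND2 and CYTB rose, which is 3 of 10 members where 1.95% of all genes tested rose and 4.46% changed in either direction. ND1 was at 1701, 1764 and 1986 CPM, all above the 3 DMSO values, with a log2 fold change of 0.20 ± 0.05 (edgeR adjusted p = 0.019). ND2 was at 2562, 2694 and 2975 CPM, again above every DMSO library (0.22 ± 0.05, adjusted p = 0.00687). CYTB was at 1066, 1089 and 1282 CPM (0.20 ± 0.05, adjusted p = 0.0272), with no overlap with DMSO. The highest value of each of the 3 was in SHP1705 replicate 3. In that library the 10 members together took 2.32% of all counts, against 1.96% and 2.04% in the other SHP1705 libraries and 1.90% to 1.99% in DMSO. Without it no member passed the threshold, and the log2 fold changes were 0.14 for ND1, 0.15 for ND2 and 0.12 for CYTB. ND1 and CYTB also did not pass without any single DMSO replicate.

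The 7 members that did not pass the test with SHP1705 at 24 h had log2 fold changes from 0.03 (COX1) to 0.17 (ND6), and no member was lower. Over all 10 the median was 0.11, against 0.00 for all genes. Besides the 3 that rose, ND6 and COX2 were higher in every SHP1705 library than in any DMSO library, which makes 5 members without overlap where 11.5% of all genes did the same.

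With carfilzomib alone at 24 h, ND4 rose and no other member passed, which is 1 of 10 members where 10.1% of all genes rose and 21.5% changed in either direction. ND4 was at 2942, 2726 and 3007 CPM, above the 3 DMSO libraries, with a log2 fold change of 0.14 ± 0.05 (edgeR adjusted p = 0.0358). It did not pass without any single DMSO replicate or without carfilzomib replicate 1 or 3. The members' median log2 fold change was 0.10, and 5 of them (ND1, ND2, ND4, COX2 and CYTB) did not overlap with DMSO, where 16.9% of all genes did the same. ND6 had the widest spread in this group, at 526, 499 and 409.6 CPM, and its count as a percent of the other 9 was lowest of all 24 h libraries, at 1.99%, in carfilzomib replicate 3.

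Set against carfilzomib alone, the combination at 24 h had more ND1 (0.19 ± 0.05, edgeR adjusted p = 0.0185), 1 of 10 members where 4.36% of all genes rose and 9.02% changed in either direction. ND1 was at 1803, 1655 and 1642 CPM with carfilzomib and at 1853 CPM or more in the combination. ND2 (0.14 ± 0.05, adjusted p = 0.0597) and COX1 (−0.13 ± 0.05, adjusted p = 0.0907) also did not overlap between these groups, as 12.3% of all genes did not in the higher and 12.7% in the lower direction, but they did not pass the threshold. The ND1 call was lost without combination replicate 2 (0.15, adjusted p = 0.133). The interaction, the combination's log2 effect less those of each drug alone, did not pass for any member, where 0.482% of all genes were called. For ND1 it was −0.01 (95% interval −0.16 to 0.14) and for COX1 −0.16 (−0.30 to −0.02, edgeR adjusted p = 0.282). By DESeq2 no member passed either. By edgeR 2 of 10 members were under an unadjusted p of 0.05, as were 2202 of 16183 genes. All 3 comparisons with DMSO at 24 h share the same control libraries.

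**Figure D3:**
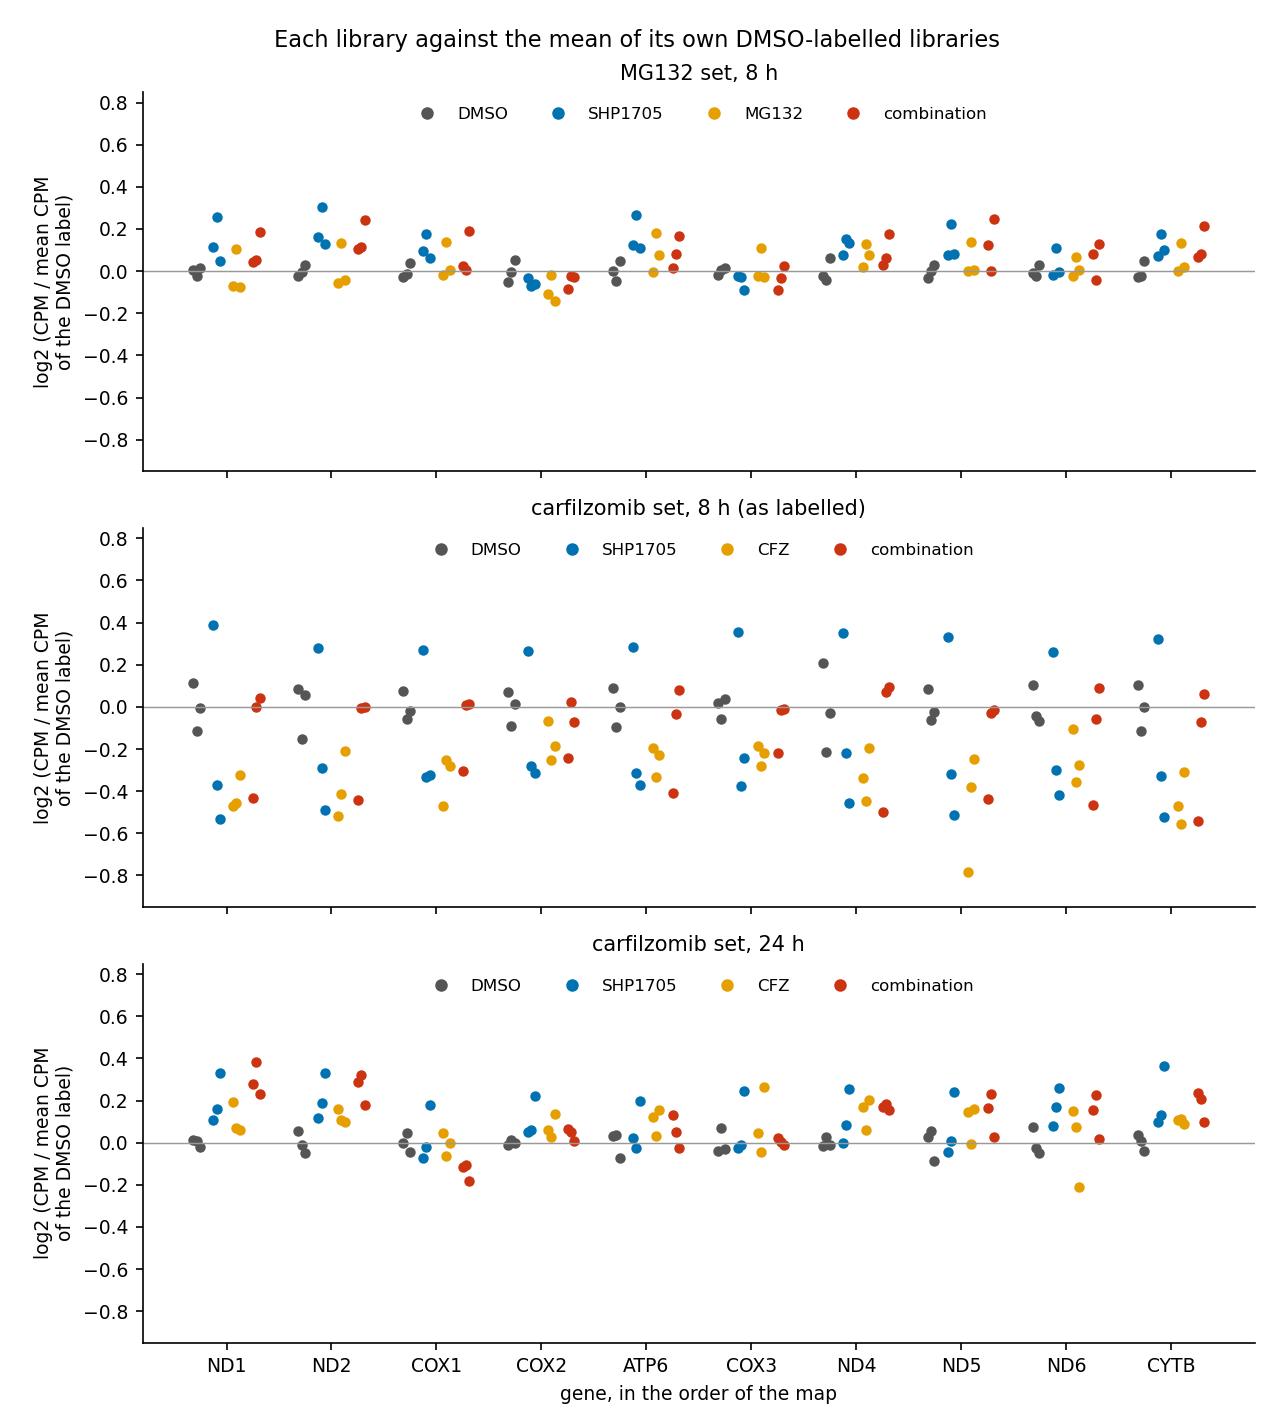
Level of each member in each library as log2 of its CPM over the mean of the DMSO-labelled libraries of the same table, in map order, with 3 points per labelled group. At 24 h the red combination points lie above 0 for ND1, ND2, ND4 and CYTB and below 0 for COX1; in the 8 h carfilzomib set 1 SHP1705-labelled library lies above and 2 lie below DMSO for every member.

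In the MG132 table SHP1705 alone for 8 h raised ND2, ATP6 and ND4, 3 of 10 members where 3.45% of 16591 genes tested rose and 7.53% changed in either direction. ND2 was at 2676, 2711 and 2778 CPM in DMSO and at 3045, 3358 and 2978 CPM with SHP1705, and the groups did not overlap (0.20 ± 0.05, edgeR adjusted p = 0.0129). ATP6 was at 2809.9, 2725 and 2904 CPM in DMSO and at 3069, 3381 and 3038 CPM with SHP1705 (0.17 ± 0.04, adjusted p = 0.0257). ND4 was at 3586, 3541 and 3804.5 CPM in DMSO and at 3839, 4051 and 4001 CPM with SHP1705 (0.12 ± 0.04, adjusted p = 0.0448). For all 3 genes every SHP1705 library was above every DMSO library.

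ND1, ND5, COX1 and CYTB were also higher in each SHP1705 library than in any DMSO library without passing the threshold, with log2 fold changes of 0.14, 0.13, 0.11 and 0.12 (edgeR adjusted p = 0.088, 0.134, 0.126 and 0.0772). That makes 7 members higher without overlap, where 12.8% of all genes did the same. COX3 was lower without overlap, as 13.1% of all genes were (−0.05 ± 0.03, adjusted p = 0.469), COX2 was at −0.06 ± 0.03 and ND6 at 0.03 ± 0.04. SHP1705 replicates 2 and 3 are among the libraries with POSTN counts, and no member passed without the 4 such libraries outside the combination, which leaves 1 SHP1705 library that is assumed to vary like the other groups. The members' median log2 fold change was then 0.08, against 0.12 with all libraries. No member passed without DMSO replicate 1, without DMSO replicate 2 or without SHP1705 replicate 2. The part of RNA from other cells in these values was not tested.

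The SHP1705 effects at 24 h and in the MG132 table at 8 h were compared by a test of their difference. No member passed, where 0.023% of 17389 genes were called. None was under an unadjusted p of 0.05 by edgeR, where 791 genes were. The differences, 24 h minus 8 h, ran from −0.10 to 0.17 on the log2 scale, and their 95% intervals reached from −0.45 to 0.49, which leaves room for differences larger than either effect.

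With MG132 alone for 8 h no member passed the test. The share of all genes called was 0% in edgeR, with 1574 of 16591 genes under an unadjusted p of 0.05, among them 2 members. DESeq2 called 69 genes and no member. The members' log2 fold changes ran from −0.09 (COX2, edgeR adjusted p = 0.317) to 0.08 (ATP6, adjusted p = 0.596). MG132 replicate 2 was the highest of its group for all 10 members, with ND2 for instance at 2616.5, 2983 and 2639.5 CPM in replicates 1, 2 and 3.

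In the combination of SHP1705 and MG132 at 8 h, ND2, CYTB, ND5 and ND4 were called higher than DMSO after TMM scaling. With library totals alone as the scale, all 10 members instead lay below 0, at −0.35 to −0.15. The median of all genes was then −0.31, moved by 0.30 from the TMM scale. On the TMM scale ND2 was at 2928, 2949 and 3222 CPM, above all DMSO libraries, with a log2 fold change of 0.16 ± 0.05 (edgeR adjusted p = 0.00769). CYTB (0.12 ± 0.04, adjusted p = 0.0109) did not overlap with DMSO either, and ND1 was the third without overlap, where 31.5% of all genes were higher in that way. ND5, the other large pumping subunit of complex I (0.13 ± 0.05, adjusted p = 0.0334), and ND4 (0.09 ± 0.04, adjusted p = 0.0358) did overlap with DMSO. Of 20 alternatives, ND2 was called in 19, CYTB in 17, ND5 in 13 and ND4 in 10, counting calls in either direction. ND4 did not pass with only the compared groups fitted or without the 4 libraries with POSTN counts, ND5 did not pass in DESeq2 or without any single DMSO replicate, and CYTB did not pass without DMSO replicate 1 or 2. The 9 fibroblast and mesenchymal markers summed to 126 to 282 CPM in the 3 combination libraries and to 18.1 to 19.4 CPM in DMSO, and their part in these values and in those of the ribosomal RNAs below was not tested. These 4 of 10 stand where 29.2% of all genes rose and 58.8% changed in either direction. The members' median was 0.09, against −0.01 for all genes.

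The same libraries read differently as shares. Of all counts, the 10 members made up 2.94% to 3.07% in DMSO and 2.46% to 2.68% in the combination, with no overlap. The heat shock genes HSPA1A and HSPA1B made up 7.80% to 8.01% in the combination and 0.157% to 0.178% in DMSO. With library totals as the scale the log2 fold changes were −0.15 for ND2, −0.18 for CYTB, −0.17 for ND5 and −0.21 for ND4. Those of the other 6 were −0.21 for ND1, −0.25 for ND6, −0.23 for COX1 and −0.21 for ATP6, with COX2 and COX3 below 0 on both scales. With library totals the median of the members was −0.21 and that of all genes −0.31, and COX2 (−0.35) and COX3 (−0.34) were below the latter. On the TMM scale no member passed without combination replicate 3, which was the highest library for 9 of the 10 members.

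**Figure D4:**
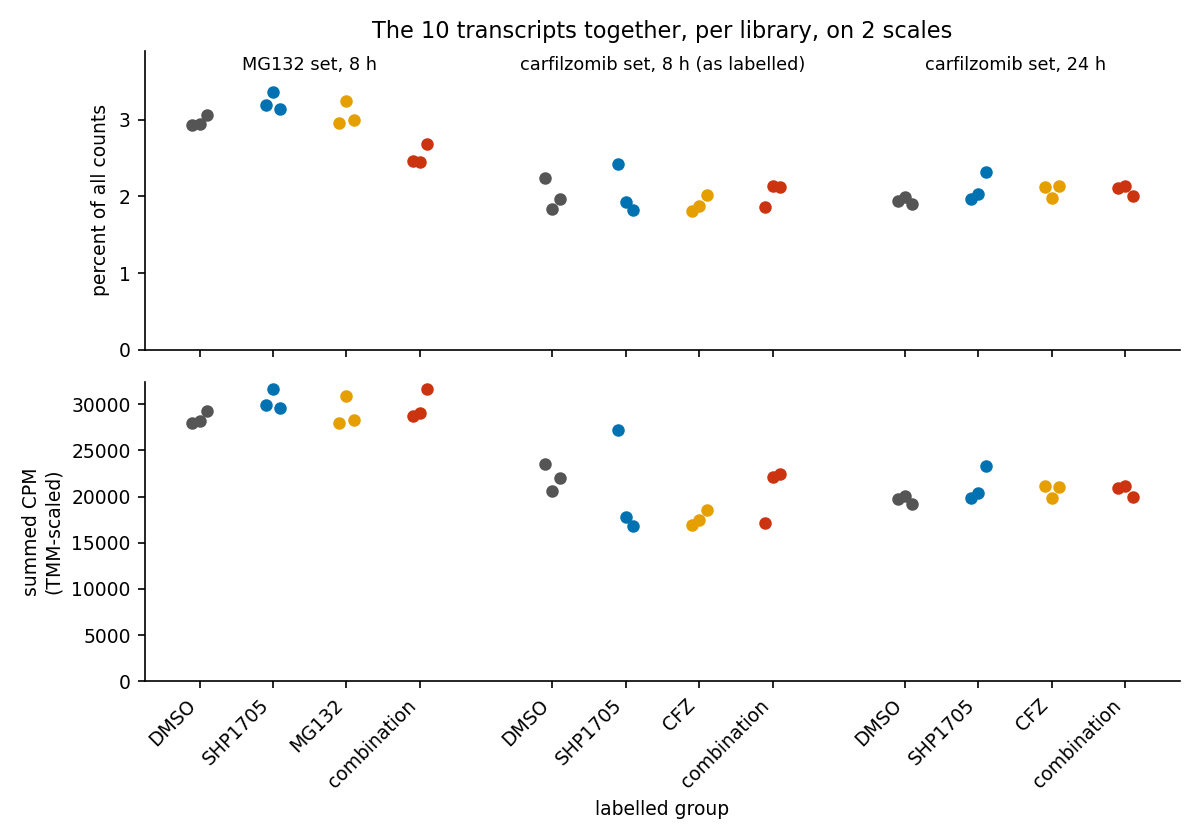
The 10 members together in each library, as a percent of all counts (top) and as summed CPM after TMM scaling (bottom), by labelled group. In the MG132 table the combination lies lowest as a share, at 2.46 to 2.68 percent, and within the range of the other groups as summed CPM.

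The ribosomal RNAs lie near the start of the same strand's transcript as 9 of the members, and both rose in that combination on the TMM scale. RNR1 was at 511, 491 and 498 CPM in DMSO and at 693, 706 and 674 CPM in the combination (0.47 ± 0.03, edgeR adjusted p = 3.23e-11). RNR2 was at 6474, 6439.6 and 6433 CPM in DMSO and 8079, 8418 and 8071 CPM in the combination (0.34 ± 0.02, adjusted p = 3.95e-11). With library totals as the scale both were still above 0, RNR1 at 0.16 (adjusted p = 3.53e-05) and RNR2 at 0.04 (adjusted p = 0.0746), where all 10 members were below 0. These libraries were selected for polyA, and how much ribosomal RNA such a selection carries over was not tested. At 24 h the ribosomal RNAs did not pass the test in the combination with carfilzomib (RNR1 0.11, RNR2 0.05; adjusted p = 0.423 and 0.654).

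Against MG132 alone, the combination at 8 h had ND2 called higher on the TMM scale (0.14 ± 0.05, edgeR adjusted p = 0.0138), 1 of 10 members where 28.2% of all genes rose and 57.2% changed in either direction. It was at −0.17 with library totals, and it did not pass in DESeq2 or without MG132 replicate 1, MG132 replicate 3, combination replicate 3 or the 4 libraries with POSTN counts. In the interaction, ATP6 was called lower (−0.16 ± 0.06, adjusted p = 0.0386), 1 of 10 where 24.2% of all genes were lower and 48.9% differed in either direction. That call was lost in DESeq2 and without any of 6 single libraries, namely DMSO replicates 1 and 2, SHP1705 replicate 2, MG132 replicate 2 and combination replicates 1 and 2. With library totals it was −0.50.

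**Figure D5:**
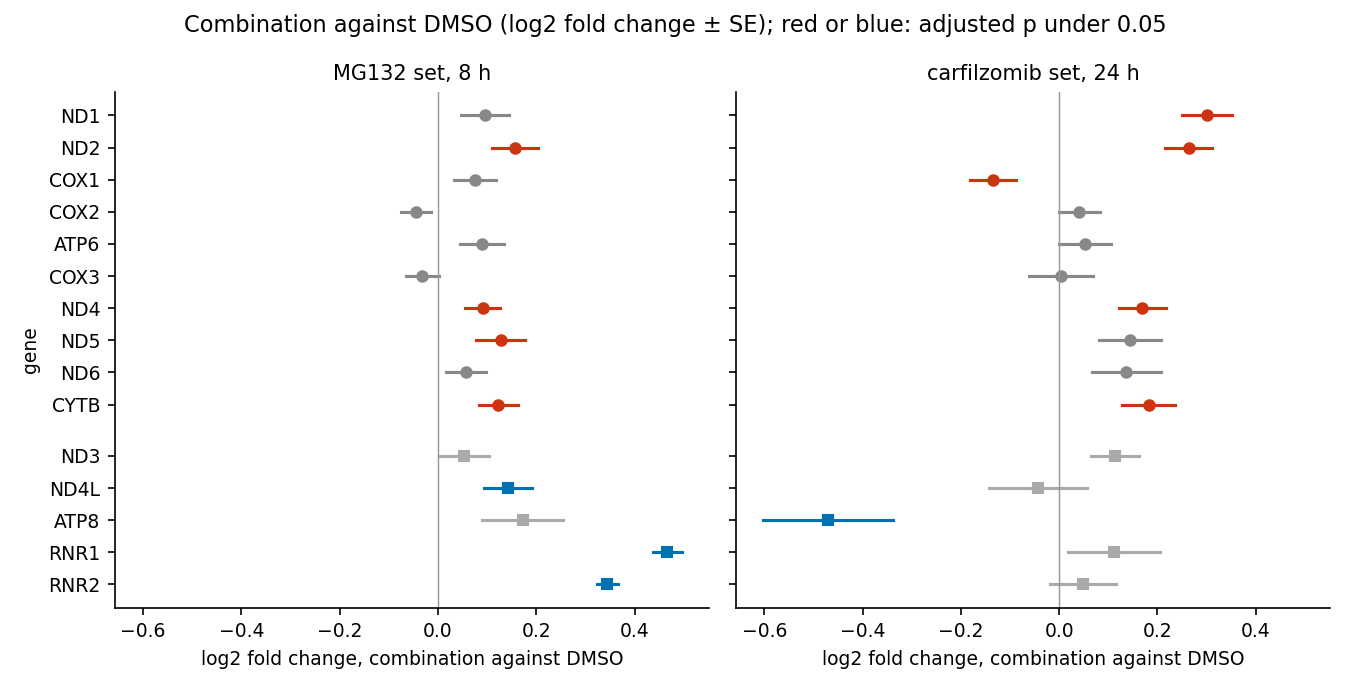
Log2 fold change ± SE of the combination against DMSO on the TMM scale for the 10 members (circles, red where called) and for ND3, ND4L, ATP8 and the ribosomal RNAs RNR1 and RNR2 (squares, blue where called). With MG132 the called members lie between 0.09 and 0.16 and RNR1 at 0.47; with carfilzomib at 24 h ND1 lies at 0.30 and COX1 at −0.13. With library totals as the scale all members in the MG132 panel lie below 0.

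The other 3 messages of the mitochondrial genome are ND3, ATP8 and ND4L, and each was called in at least 1 comparison. ND3, a short complex I subunit, fell with SHP1705 in the MG132 table, from 684, 744 and 718 CPM to 614, 561 and 668 CPM (−0.22 ± 0.05, edgeR adjusted p = 0.0123), and without the 4 libraries with POSTN counts it did not pass (−0.22, adjusted p = 0.0775). At 24 h ND3 rose with carfilzomib (0.17 ± 0.05, adjusted p = 0.0155). ATP8, whose message is shared with ATP6, fell in the combination at 24 h from 24.2, 30.8 and 23.5 CPM to 21.2, 20.6 and 15.1 CPM (−0.47 ± 0.13, adjusted p = 0.0101), while ATP6 was at 0.05 ± 0.05. ND4L, which shares a message with ND4, was called higher in the combination with MG132 on the TMM scale (0.14 ± 0.05, adjusted p = 0.018) and lower with library totals (−0.16, adjusted p = 0.00574).

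Nuclear copies passed the test in some comparisons. In the 24 h combination MTND2P28 rose by 0.15 ± 0.06 (edgeR adjusted p = 0.0424) beside the rise of ND2, and MTCO1P12 fell by 0.28 ± 0.07 (adjusted p = 0.00427) beside the fall of COX1. With SHP1705 at 24 h neither passed, at 0.08 ± 0.06 and −0.11 ± 0.07. In the MG132 combination MTND2P28 (0.13 ± 0.04, adjusted p = 0.0149) and the sparsely counted MTND1P23 (0.57 ± 0.21, adjusted p = 0.0278) were called higher on the TMM scale. With carfilzomib alone at 24 h the sparsely counted MTCO2P12 was called lower (−2.48 ± 0.70, adjusted p = 0.0125).

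Nuclear genes for the same complexes were counted over 58 subunits, 24 of complex I, 9 of complex III, 10 of complex IV and 15 of complex V. With SHP1705 in the MG132 table none rose and 22 fell, where 4.08% of all genes fell, with a median log2 fold change of −0.11, among them UQCRH of complex III (−0.26 ± 0.04), NDUFS5 of complex I (−0.26 ± 0.04) and COX7C of complex IV (−0.28 ± 0.06). Without the 4 libraries with POSTN counts 1 fell and the median was −0.13. Without DMSO replicate 2, 7 fell, and without SHP1705 replicate 1 or 2, 10 fell. At 24 h SHP1705 lowered 1 of the 58, ATP5F1D (−0.33 ± 0.06, edgeR adjusted p = 0.00274), with a median of 0.00, where 2.51% of all genes fell.

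The counts that follow stand beside 13% of all genes that rose and 14.3% that fell in the 24 h combination. There 13 of the 58 rose and 3 fell, among them NDUFAB1 (0.66 ± 0.09) and UQCRC2 (0.32 ± 0.06). Without DMSO replicate 2 or combination replicate 3, 6 rose. Of 16 genes of mitochondrial DNA transcription and replication, 4 rose and 1 fell, led by the polymerase POLRMT (0.55 ± 0.06, edgeR adjusted p = 6.93e-07), with MGME1, a mitochondrial exonuclease, at −0.39 ± 0.09. Of 27 tested genes of mitochondrial RNA processing and stability, 8 rose and none fell, led by the oligoribonuclease REXO2 (0.66 ± 0.05) and ELAC2 (0.57 ± 0.05), the enzyme that cuts the 3′ end of transfer RNAs. Of 31 genes of mitochondrial translation, 12 rose and none fell, with the ribosomal protein MRPL2 at 0.45 ± 0.05. The medians of these 3 lists were 0.08, 0.14 and 0.15, against 0.00 for all genes. With carfilzomib alone POLRMT rose by 0.31 ± 0.06 and REXO2 by 0.55 ± 0.05, and with SHP1705 alone no gene of these 3 lists was called.

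In the combination with MG132 at 8 h, the nuclear lists moved in both directions where 29.2% of all genes rose and 29.7% fell. On the TMM scale 7 of 16 genes of mitochondrial DNA transcription and replication rose and 6 fell. Of 27 genes of mitochondrial RNA processing and stability 15 rose and 7 fell. Of 31 genes of mitochondrial translation 12 rose and 7 fell. Of the 58 nuclear subunits, 12 rose and 12 fell on the TMM scale. With library totals none rose and 47 fell, beside a median log2 fold change of −0.31 for all genes. The share of all genes called on that scale is not given, so this count is not read as a result about the subunits. LRPPRC, which binds and stabilizes mitochondrial messages, rose by 0.63 ± 0.03 (edgeR adjusted p = 9.81e-13), and by 0.32 with library totals. TFB2M, a transcription factor of the mitochondrial promoters, rose by 0.72 ± 0.05, whereas POLRMT fell by 0.12 (adjusted p = 0.0289). FASTKD5, a factor in processing messages that lack a transfer RNA at an end, rose by 1.02 ± 0.06, and SUPV3L1, a helicase of RNA decay, by 0.95 ± 0.06. The members' log2 fold changes beside these ran from −0.05 to 0.16.

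Across the 36 libraries, after each table was centred on its mean, Pearson's r between pairs of members ran from 0.60 (ND6 and COX3) to 0.97 (ND1 and ND2). The widest spread was in the 8 h carfilzomib table, and without its libraries (24 left) the lowest pair, again ND6 and COX3, was at −0.11, while ND1 and ND2 were at 0.96. Among 10090 nuclear genes with a mean of at least 5 CPM in every table, the closest to the mean of the 9 members of one strand were NUP214 (r = 0.89), HELZ (0.89), USP9X (0.86), KMT2C (0.86) and POU2F1 (0.86). Without the 8 h carfilzomib libraries these 5 were at 0.53, 0.51, 0.50, 0.47 and 0.60, so the ranking rests largely on that table. The most opposite was MID1IP1, at −0.86 over all libraries and −0.48 without them. For ND6 the closest was ATP6V0C (0.80, and 0.42 without them) and the most opposite PARP12 (−0.78, and −0.59 without them). The points share libraries, scaling and the groups of each table, so these values describe these libraries.

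In the 8 h carfilzomib table, with the libraries as labelled, no member was called in any of the 5 comparisons. These counts of 0 did not hold in every alternative. Without the library labelled SHP1705 replicate 1, 2 members were called lower with SHP1705, 5 lower with carfilzomib and 7 higher in the interaction. Without the first replicates of all labels, 9 were called with SHP1705, 9 with carfilzomib, 10 in the combination against carfilzomib and 10 in the interaction, and with only the compared groups fitted 8 were called with carfilzomib. The shares of all genes called in these alternatives are not given here, so these counts are not read as results about the members. With all 12 libraries fitted, the share of all genes called was 0% for SHP1705 against DMSO. There 2244 of 15577 genes and no member were under an unadjusted p of 0.05. For carfilzomib against DMSO the share was 23%. In the latter 8 members were lower without overlap, where 26.1% of all genes did the same, with a median log2 fold change of −0.33, or −0.09 with library totals as the scale, where COX2 and COX3 turned above 0. ND1, for instance, was at 1494, 1276 and 1379.7 CPM in the libraries labelled DMSO and at 999.7, 1009 and 1105 CPM in those labelled carfilzomib (−0.41 ± 0.21, edgeR adjusted p = 0.142). The libraries labelled SHP1705 were at 1812, 1071 and 956 CPM and those labelled combination at 1024, 1384 and 1426 CPM, and in both labels the first replicate stood apart from the other 2. The log2 fold change of libraries labelled carfilzomib against those labelled DMSO was higher at 24 h than at 8 h for 5 members. That is by a test of the difference, where 20% of all genes were higher and 40.1% differed in either direction. The 5 were ND1, ND2, ND4, ND5 and CYTB, with differences from 0.47 to 0.56 on the log2 scale. They rest on the 8 h labels, so they cannot be read as a change of carfilzomib's effect with time.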

How the data were processed

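PolyA RNA of MDA-MB-231 cells was sequenced in 36 libraries, 12 in each of 3 sets. The deposited tables hold raw read counts per gene, which the authors made with Trimmomatic, FastQC, HISAT2 and featureCounts against hg38, per the submitters' processing notes; versions, gene annotation and strand setting were not found in the sources used here. Every deposited count column was mapped to a labelled sample, and 0 columns were left unused. Values are integers and were used as deposited.

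Each set was fitted separately with edgeR 4.0.16 in R 4.3.3: genes filtered with filterByExpr, TMM scaling, and the quasi-likelihood test over the 4 groups, with Benjamini-Hochberg adjustment over all genes tested and a threshold of 0.05. This gave 15 comparisons, and a fit over all 36 libraries gave 3 differences between sets. SE is the log2 fold change divided by the square root of F. CPM uses TMM-adjusted totals, and CPM per kilobase divides by the GENCODE gene length. Groups of 3 cannot give an exact permutation p below 0.1, so single values carry no such test. The steps were checked on simulated counts.

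The 10 members and the gene lists were chosen with earlier results of these data known. All members are reported. From each other list, the genes named were among the 3 with the smallest p that passed the test, apart from other mitochondrial genes, POLRMT, LRPPRC, nuclear copies and markers, which were named for their role. Genes most like the members were ranked by Pearson's r over the 36 libraries. Alternatives were other scaling factors (relative log expression, nuclear genes only, library totals), no filter, DESeq2 1.42.0, fits with a replicate block or restricted to the groups of a comparison, and fits without single libraries. Library totals, and leaving out the first replicates of the 8 h carfilzomib set, were chosen after seeing the data. The smallest chi-square per degree of freedom between libraries of a group was 3.15, so no library was counted as a copy of another. Same-numbered libraries of different groups did not deviate together (median correlations 0.01, −0.11 and −0.00 in the MG132, 8 h and 24 h sets), so numbers were not used as pairs.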

Additional observations from a re-analysis of the deposited data

Results flagged for a closer look

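In 5 members the log2 fold change of libraries labelled carfilzomib against those labelled DMSO differed between the 24 h and 8 h sets. The difference itself passed a test. These differences, 24 h minus 8 h, were 0.53 ± 0.189 (SE) for ND1 (edgeR adjusted p = 0.0264), 0.50 ± 0.17 for ND2 (adjusted p = 0.0193) and 0.47 ± 0.186 for ND4 (adjusted p = 0.0443). They were 0.56 ± 0.193 for ND5 (adjusted p = 0.0209) and 0.55 ± 0.184 for CYTB (adjusted p = 0.0174). That is 5 of 10 members, where 20% of all genes tested were higher and 40.1% differed in either direction. For ND4 the adjusted p was 0.0515 to 0.0518 with relative log expression factors or DESeq2. At 8 h HSPA1A was at 726 to 896 CPM in the libraries labelled carfilzomib and at 14559 to 23605 CPM in those labelled DMSO. The 8 h side rests on labels that HSPA1A and PER3 go against, and the part of this in the difference was not tested. The differences therefore cannot be read as a change of carfilzomib's effect with time. The difference between the SHP1705 effects as labelled, at 24 h and at 8 h in the carfilzomib sets, passed for no member, where 2.94% of all genes were called. By edgeR 1 member was under an unadjusted p of 0.05, as were 3749 of 17389 genes.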

How the results depend on the processing

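Values below are numbers of the 10 members called, with the number as reported in brackets. The share of all genes called in each alternative is not given, so the counts describe only how far the calls held. In the MG132 set, library totals as the scale gave 5 for SHP1705 (3), and 10 each for the combination against DMSO (4), against MG132 (1) and the interaction (1). In the latter 3 the median log2 fold change of all genes was then −0.31, −0.32 and −0.34. Without a filter on low counts SHP1705 and these 3 had 7, 8, 3 and 3, and MG132 alone had 1 (0). SHP1705 had 7 with only the groups compared and 0 without the 4 libraries with POSTN counts. DESeq2 gave 0 for the combination against MG132 and 0 for the interaction. A replicate block gave 2 for the interaction and changed no other count by over 1.5 times; replicate numbers did not pair the libraries (each of 12 correlated best with its own number in 3, 0 and 4 cases). In the 24 h set, carfilzomib (1) had 2 with library totals, with no filter and with only the groups compared, and the combination against carfilzomib (1) had 2 with library totals, 3 with no filter and 2 in DESeq2. In the 8 h carfilzomib set all were 0 as labelled. Carfilzomib there had 3 with no filter and 8 with only the groups compared. Without the first replicates, SHP1705 and carfilzomib had 9 each, the combination against carfilzomib 10 and the interaction 10. Leaving out 1 library at a time gave, in the MG132 set, 0 to 5 for SHP1705, 0 for MG132, 0 to 4 for the combination against DMSO, 0 to 4 against MG132 and 0 to 3 for the interaction. It gave 0 to 2, 0 to 5, 0, 0 and 0 to 7 in the 8 h carfilzomib set, and 0 to 4, 0 to 2, 3 to 6, 0 to 3 and 0 in the 24 h set, in the same order. Sign changes of values that passed the test on at least 1 of the scales came with library totals in the MG132 set; library totals moved the median of all genes by up to 0.33 over all comparisons. Values that passed on neither scale also changed sign, such as 9 members with SHP1705 and 6 with the combination against DMSO in the 8 h carfilzomib set with library totals. Against DMSO the combination then had ND1 −0.21, ND2 −0.15, ND4 −0.21, ND5 −0.17, ND6 −0.25, COX1 −0.23, CYTB −0.18 and ATP6 −0.21. Against MG132 it had ND1 −0.21, ND2 −0.17, ND4 −0.30, ND5 −0.23, ND6 −0.27, COX1 −0.28, COX2 −0.27, CYTB −0.24 and ATP6 −0.31. The interaction was −0.32 for ND6 and −0.23 for COX2. The cause of these changes was not tested. Depth limits ND6 most, whose lowest count was 5081.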

Other observations

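In the 8 h carfilzomib set the first replicate of the labels SHP1705 and combination stood apart from the other 2 in the summed level of the 10 members. This level was 23520, 20588 and 22054 CPM in the libraries labelled DMSO and 27240, 17749 and 16870 CPM in those labelled SHP1705. It was 16953, 17427 and 18599 CPM in those labelled carfilzomib and 17118, 22101 and 22408 CPM in those labelled combination. Beside these, HSPA1A was at 14559, 23605 and 23242 CPM in the libraries labelled DMSO and at 19856, 705 and 693 CPM in those labelled SHP1705. It was at 792, 726 and 896 CPM in those labelled carfilzomib and at 892, 12020 and 15052 CPM in those labelled combination. Whatever their label, libraries with HSPA1A at 12020 to 23605 CPM had summed member levels of 20588 to 27240 CPM. Those with HSPA1A at 693 to 896 CPM had 16870 to 18599 CPM, without overlap. As shares of all counts the members overlapped between these libraries, at 1.83% to 2.42% and 1.81% to 2.02%. This sorting was made after the values were seen and was not tested.

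PER3 in the same order was at 8.19, 2.06 and 1.55 CPM, then 2.25, 9.62 and 7.91, then 6.78, 1.26 and 1.69, then 1.92, 7.69 and 8.20. In the MG132 set it was at 13.8 to 14.7 CPM in DMSO and MG132 and at 3.68 to 5.07 CPM in SHP1705 and the combination, with no overlap. The library labelled SHP1705 replicate 1 of the 8 h carfilzomib set also stood apart in its mitochondrial ribosomal RNA: RNR1 was at 5529 CPM there and at 353 to 752 CPM in the other 11. Its nuclear ribosomal RNA was at 35287 CPM.

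Chaperones and proteases of the mitochondrion, 14 genes, were described in no comparison above. In the combination with MG132 at 8 h, 6 rose and 3 fell on the TMM scale, among them HSPD1 (1.86) and HSPA9 (1.22), both protein-folding chaperones of the matrix, where 29.2% of all genes rose and 29.7% fell. In the combination with carfilzomib at 24 h, 5 rose and 1 fell, where 13% of all genes rose and 14.3% fell, with HSPA9 at 0.27. Of 7 regulators of mitochondrial biogenesis, 2 rose and 3 fell in the MG132 combination, with the coactivator PPARGC1B at −1.95 and the nuclear receptor ESRRA at −0.53. With SHP1705 at 24 h none of these 7 rose and 3 fell, where 2.51% of all genes fell, with ESRRA at −0.41.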
